A study of Mus musculus with 12 samples.

Results

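Transcripts were compared between cells given ETV6 P214L, 3 libraries, and cells given ZsGreen alone, 3 libraries, which together make 6 of the 12 libraries of the study. The members are every library that its title places in either group, with no selection on measured values. All were Ba/F3 cells, a mouse blood cell line that normally needs interleukin-3 (IL-3), and NRAS G12D, a RAS protein locked in its active state, was present in every group, the control included. P214L cells had a construct in which ETV6 P214L and the fluorescent protein ZsGreen share 1 transcript, and control cells had ZsGreen without ETV6. Cells of every group were sorted into medium lacking IL-3 on day 0, given fresh medium on day 2 and harvested on day 3. The other 6 libraries, 3 with ETV6 WT and 3 with ETV6 I209S P214L in the same cells and medium, entered the fit to share the estimate of the spread, and their levels stand beside those of named genes. Whether replicate libraries were grown as separate cultures is not in the labels, so the p-values measure only the spread between these libraries, which may be technical.

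ETV6 is a transcriptional repressor of the ETS family. Its DNA-binding domain recognises sites around a GGAA core, a second domain joins ETV6 molecules to each other, and the protein acts in the nucleus. It is needed by blood stem cells and in platelet formation, and inherited changes in it cause low platelet counts with a raised risk of leukaemia. By the title of the study, P214L gives ETV6 a signal for export from the nucleus, a step that is carried out for many proteins by the exportin XPO1. The comparison with ZsGreen asks what the altered protein still does to the transcripts of these cells.

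The labels call the cells pro-B cells, but the markers that define that stage were largely missing from these 6 libraries. Of 25 B-lineage genes, 13 had no count in any of them, among them Ebf1, Rag1, Rag2, Igll1, Dntt and Il7r. Pax5 had at most 2 counts in a library and Blnk at most 1. Other members of the list had counts in every library. Among them were Bank1 at 534 to 674, Cd79b at 120 to 216, Cd72 at 81 to 111 and Cd79a at 7 to 41. Ptprc, the pan-leukocyte phosphatase CD45, was abundant. Of 16 fibroblast and stromal markers, 12 were at 0. Col5a1, a collagen gene of that list, was abundant, at 5247 to 8264 counts, and Acta2 had 116 to 168. Col5a1 was higher with P214L by 0.37 on the log2 scale.

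Depth was alike in the groups, with total counts of 15156449 to 17876563 in ZsGreen and 14767981 to 17241881 in P214L libraries, but the number of genes detected was not. ZsGreen libraries 1, 2 and 3 had a count for 15706, 17481 and 17130 genes, against 19858, 19449 and 19838 in P214L libraries. Brought to a common total of 14301683 counts, the numbers were 15645, 17441 and 17050 against 19806, 19198 and 19744. Every ZsGreen library detected fewer genes than every P214L library, and ZsGreen 1 the fewest. Of the genes tested, 889, 359 and 435 were at 0 in the ZsGreen libraries against 91, 91 and 77. ZsGreen 1 also stood apart on the first principal component of the 6 libraries, at -79.8 where the others lay between 3.56 and 25.9, and ZsGreen 3 on the second, at -61.3 where the others lay between -3.09 and 18.9. 18S ribosomal RNA took 2.92% to 4.89% of counts in ZsGreen and 3.88% to 5.90% in P214L libraries. The difference in detection runs with the groups, and its part in the results was not tested. It was largest for weak genes: the median log2 fold change of P214L over ZsGreen was 0.25 for the 2365 genes with a mean under 1 CPM (counts relative to the scaled library total) and -0.04 for the 2256 genes at 100 CPM or more. Genes under 1 CPM gave 23 of the calls higher and 3 of the calls lower. The 2415 genes at 1 to 5 CPM had a median of 0.13 and gave 37 calls higher and 2 lower. Those at 5 to 20 CPM gave 93 and 25.

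In all, 751 of 14794 genes tested, 5.08%, were called changed at an adjusted p under 0.05 by edgeR's quasi-likelihood test. More rose than fell: 513 genes (3.47% of those tested) were higher with P214L and 238 (1.61%) were lower. The rises were also larger, with 129 at least 2-fold and a median of 0.55 on the log2 scale, against 11 falls of at least 2-fold and a median of -0.36. Over all genes tested the median log2 fold change was 0.01. Protein-coding genes made up 471 of the rises and 231 of the falls, and long noncoding RNAs 29 and 6. The 3 libraries of each group did not overlap for 511 of the risen and 236 of the fallen genes. Among all genes tested, 25.7% did not overlap. In the same fit 29.2% of genes were called between P214L and ETV6 WT and 33.0% between P214L and I209S P214L.

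**Figure D1:**
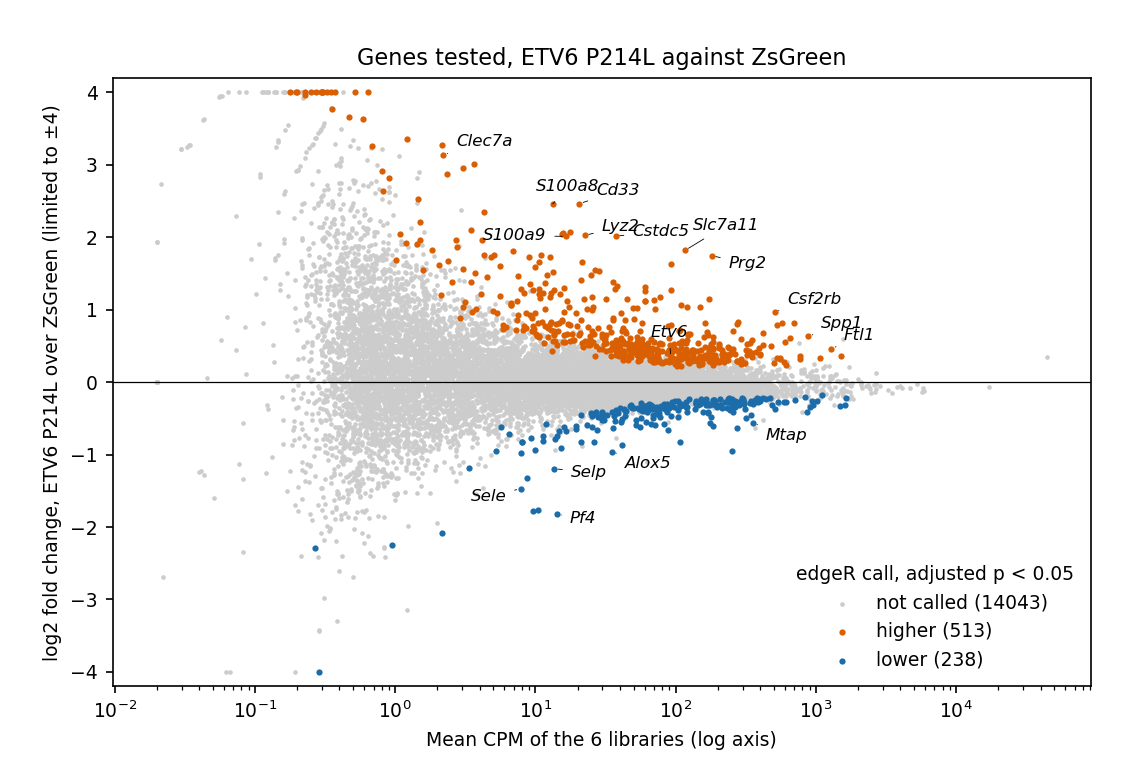
Each point is 1 of 14794 genes tested, with the mean CPM of the 6 libraries on a log axis and the log2 fold change of ETV6 P214L over ZsGreen, limited to 4 in either direction, on the other. Orange points are the 513 genes called higher and blue points the 238 called lower. The named rises S100a8 and Cd33 reach further from 0 than the named falls Pf4, Sele and Selp.

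The count of calls rested on every P214L library. It was 369 without P214L 1, 489 without P214L 2 and 390 without P214L 3, and 515, 674 and 621 without ZsGreen 1, 2 and 3. Genes called lower were lost most, from 238 to 74, 129 and 83 without P214L 1, 2 and 3 and to 130 without ZsGreen 1, while genes called higher went to 295, 360 and 307 without a P214L library. A fit of the 6 libraries alone called 617 higher and 485 lower, so that 56.0% of its calls were higher, against 68.3% with all 12 libraries, and DESeq2 called 712 higher and 476 lower, 59.9% higher. The authors' deposited table has 1274 genes at an adjusted p under 0.05 for these 2 groups, 671 higher and 603 lower with P214L. The lists shared 694 genes, all in the same direction.

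**Figure D2:**
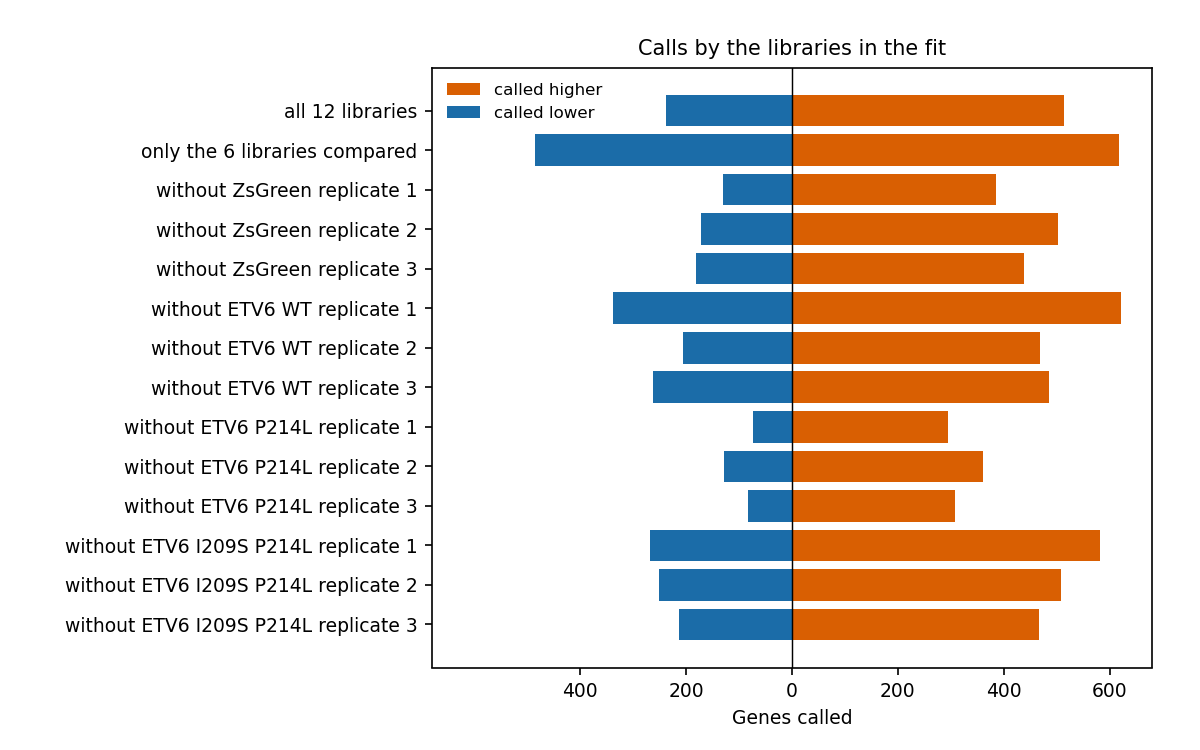
Bars give the number of genes called higher (right of 0) and lower (left of 0) with ETV6 P214L, with all 12 libraries, with the 6 libraries compared, and with each library left out. Leaving out P214L 1 gave the fewest, 295 higher and 74 lower.

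Etv6 itself (ENSMUSG00000030199; chromosome 6, 134012663 to 134247121 on mm39) was at 87.4, 77.9 and 79.8 CPM in ZsGreen libraries 1, 2 and 3 and at 103, 98.4 and 108 CPM in P214L libraries 1, 2 and 3. The groups did not overlap, and the difference was small (log2 fold change 0.34 ± 0.09 SE, adjusted p = 0.0433). Leaving out 1 of the 12 libraries removed the call in 8 cases. Counts of this gene may mix transcripts of the construct with those of the endogenous locus. Nras was at 73.2, 81.9 and 78.7 CPM in ZsGreen and 82.3, 78.7 and 81.7 CPM in P214L libraries, and was not called (adjusted p = 0.78). Xpo1, the exportin, was at 252, 251 and 259.9 CPM against 223, 222 and 229 CPM, lower in every P214L library but not called (-0.18, adjusted p = 0.105).

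Some genes of neutrophil granules and monocytes rose with P214L. S100a8 and S100a9 encode the 2 chains of calprotectin, the calcium- and zinc-binding protein of neutrophils. Cd33 encodes a sialic acid-binding inhibitory receptor of myeloid cells. The 250 bases before their transcription starts are shown because these 3 genes rose together. Slc7a11, a cystine importer, is added as a rise of another kind, and Pf4, a platelet chemokine, and Sele, E-selectin, as falls. They come from RefSeq on build GRCm38.p6, older than the mm39 of the counts, and are written 5′ to 3′ in the direction of transcription. Capitals mark GGAAGT, an ETS-type hexamer, or its reverse complement ACTTCC.
S100a8 (chr3:90668821-90669070, plus strand): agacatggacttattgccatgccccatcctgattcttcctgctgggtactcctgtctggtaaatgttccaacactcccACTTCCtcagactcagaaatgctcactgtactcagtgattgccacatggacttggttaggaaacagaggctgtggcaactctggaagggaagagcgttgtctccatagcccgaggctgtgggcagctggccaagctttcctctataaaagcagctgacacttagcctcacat
S100a9 (chr3:90695722-90695971, minus strand): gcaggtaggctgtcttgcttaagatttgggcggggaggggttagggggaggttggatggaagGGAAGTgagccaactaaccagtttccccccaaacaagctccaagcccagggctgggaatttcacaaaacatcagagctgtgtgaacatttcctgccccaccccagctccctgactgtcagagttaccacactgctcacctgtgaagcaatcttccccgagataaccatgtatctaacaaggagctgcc
Cd33 (chr7:43533172-43533421, minus strand): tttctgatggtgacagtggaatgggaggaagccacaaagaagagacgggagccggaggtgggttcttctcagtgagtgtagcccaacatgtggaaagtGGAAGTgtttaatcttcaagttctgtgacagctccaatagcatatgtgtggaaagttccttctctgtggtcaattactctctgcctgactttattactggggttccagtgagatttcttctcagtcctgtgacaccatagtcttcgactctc
Slc7a11 (chr3:50443614-50443863, minus strand): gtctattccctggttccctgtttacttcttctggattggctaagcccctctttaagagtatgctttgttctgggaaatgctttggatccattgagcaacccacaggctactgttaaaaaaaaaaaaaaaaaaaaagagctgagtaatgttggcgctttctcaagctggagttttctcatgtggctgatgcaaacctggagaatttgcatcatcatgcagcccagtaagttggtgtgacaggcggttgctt
Pf4 (chr5:90772185-90772434, plus strand): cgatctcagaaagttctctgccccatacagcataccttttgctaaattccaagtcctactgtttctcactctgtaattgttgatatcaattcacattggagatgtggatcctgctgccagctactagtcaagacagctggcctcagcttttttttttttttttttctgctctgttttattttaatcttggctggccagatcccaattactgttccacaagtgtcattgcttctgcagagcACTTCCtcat
Sele (chr1:164047984-164048233, plus strand): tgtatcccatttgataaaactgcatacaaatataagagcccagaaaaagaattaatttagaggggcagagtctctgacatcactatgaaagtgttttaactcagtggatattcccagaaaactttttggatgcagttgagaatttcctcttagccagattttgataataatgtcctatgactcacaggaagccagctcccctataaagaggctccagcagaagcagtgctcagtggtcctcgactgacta
The windows of S100a8, S100a9, Cd33 and Pf4, rises and a fall, each held the hexamer once, and those of Slc7a11 and Sele did not hold it. Such a match was common: of the matched windows, 25.6% of 407 risen genes, 18.3% of 186 fallen genes and 24.8% of all 9790 tested genes held GGAAGT on either strand, as did 5401 of all 27025 windows. CCGGAA, which can overlap it by sharing GGAA, was in 10.8%, 19.9% and 23.6% of the same 3 sets and in 12.2% of all windows. TGACNNNGC, the core of the antioxidant response element bound by NRF2, was in 13.5%, 11.8% and 11.8%, and in 10.1% of all. These are letter matches and not measured binding.

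S100a8 (ENSMUSG00000056054; chromosome 3, 90576285 to 90577342 on mm39) was at 3.44, 5.26 and 3.55 CPM in ZsGreen libraries 1, 2 and 3 and at 28.6, 17.8 and 21.1 CPM in P214L libraries 1, 2 and 3. All P214L libraries lay well above all ZsGreen libraries, and P214L 1 was the highest. The change was 5.51-fold (log2 fold change 2.46 ± 0.29 SE, adjusted p = 4.65e-05). S100a9 (ENSMUSG00000056071; chromosome 3, 90599939 to 90603028) went from 6.44, 7.53 and 5.83 to 33.5, 21.1 and 25.4 CPM, 4.04-fold (2.01 ± 0.26, adjusted p = 0.000105). Both chains thus rose, from levels at which the ZsGreen libraries were not at 0. Lyz2, the lysozyme of macrophages and granulocytes, went from 12, 6.4 and 8.06 to 43, 28.7 and 36.8 CPM (4.08-fold, adjusted p = 0.000274).

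Of 36 neutrophil and monocyte genes, 24 were tested, of which 12 rose, 12 were not called and none fell, with a median log2 fold change of 1.01. Beside the 3 above, they included Mmp8, Ngp, Anxa1, Adgre1, Ms4a3, Cebpe and Ncf1. Mmp8, the neutrophil collagenase, went from 4.52, 5.13 and 5.53 to 18.5, 14.9 and 14.6 CPM (1.66, adjusted p = 0.00093), and Ngp, a granule protein, from 12.4, 15.1 and 13.7 to 31.5, 29.9 and 29.6 CPM (1.14, adjusted p = 0.000601). Anxa1, the phospholipid-binding protein annexin A1, rose by 1.48, and Adgre1, the macrophage receptor F4/80, by 1.38 on the log2 scale. Cebpe, a transcription factor of granule genes, went from 65, 83.9 and 63.9 to 149, 152 and 145 CPM (1.07, adjusted p = 8.25e-05). Mmp8, Ngp, Cebpe and Ncf1 were picked from the list after their values were seen. Fits that left out 1 of the 6 libraries called 10 or 11 members of the list.

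The primary granule genes Prtn3 and Mpo, also picked after their values were seen, were not called. Prtn3, proteinase 3, was at 18.3, 22.6 and 24.3 and 19.8, 22.7 and 24.1 CPM (0.03, adjusted p = 0.947). Mpo, myeloperoxidase, was at 9.71, 5.4 and 3.73 and 9.29, 6.5 and 7.39 CPM (0.30, adjusted p = 0.703), and the groups overlapped for both. Elane, Csf3r, Ly6g, Cebpa, Lyz1, Chil3 and Ly6c2 had no count in any of the 6 libraries. The summed level of the 36 genes was 861 to 896 CPM of all counts in ZsGreen and 1340 to 1460 CPM in P214L libraries. In RNA from whole cultures, more cells of a type and more RNA per cell cannot be told apart.

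With ETV6 WT and I209S P214L several of these genes stood below every ZsGreen library. S100a8 averaged 0.038 CPM with ETV6 WT and 0.0179 CPM with I209S P214L, where every ZsGreen library was above 3 CPM (P214L against ETV6 WT, adjusted p = 3.97e-10). S100a9 averaged 0.0557 and 0.231 CPM, Lyz2 0.762 and 0.371 CPM and Ngp 2.85 and 1.45 CPM in the same 2 groups. For each of these the difference between P214L and ETV6 WT was called, with adjusted p of 1.45e-10 for S100a9, 3.54e-09 for Lyz2 and 6.09e-10 for Ngp. Adgre1, Cebpe and Ncf1 stood the other way, above P214L with ETV6 WT, where they averaged 127, 217 and 132 CPM. P214L against ETV6 WT was -1.30, -0.55 and -0.52 (adjusted p = 7.44e-07, 0.00377 and 5.44e-05).

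The stefins, small inhibitors of cysteine proteases that lie side by side on chromosome 16, rose. Cstdc5 (ENSMUSG00000071561; chromosome 16, 36179744 to 36188110) went from 18.1, 12.7 and 13.4 CPM in ZsGreen to 79.6, 46.8 and 52.7 CPM in P214L libraries. The lowest P214L library was above the highest ZsGreen library by a wide margin (4.05-fold, 2.02 ± 0.26, adjusted p = 0.0001). Cstdc4 went from 49.1, 46.8 and 39.3 to 192, 103 and 124 CPM (3.1-fold, adjusted p = 3.85e-05). Of 10 stefins tested 8 rose and none fell, with a median of 1.71, and fits without 1 of the 6 libraries called 7 or 8. Stfa2l1, Cstdc4, Csta3, Csta2 and Stfa1 follow each other among tested genes from 35977181 to 36105735, and Cstdc5, Stfa2 and Stfa3 from 36179744 to 36275754 (mm39). These genes are near copies that can share reads, so how the rise is divided among them is uncertain. With ETV6 WT they stood far lower, for example Cstdc4 at 1.4 CPM and Cstdc5 at 0.153 CPM.

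Several receptors of myeloid cells, many of them inhibitory or sugar-binding, rose too. Cd33 (ENSMUSG00000004609; chromosome 7, 43173640 to 43193852) was at 6.49, 7.39 and 4.99 CPM in ZsGreen and 43.2, 26.4 and 34.5 CPM in P214L libraries. The groups were far apart, 5.52-fold, the largest rise among protein-coding genes of at least 5 CPM (2.46 ± 0.28, adjusted p = 3.21e-05). With ETV6 WT it averaged 4.37 CPM and with I209S P214L 1.81 CPM (P214L against ETV6 WT 2.98, adjusted p = 3.67e-07). Of 16 receptors tested 11 rose and none fell (median 1.11), and 9 to 11 did so without 1 of the 6 libraries. The others were Siglecf, Pirb, Lilrb4a, Lilrb4b, Clec4d, Clec4e, Clec7a, Clec12a, Cd300lf and C3ar1. Clec4d, a C-type lectin receptor, went from 27.5, 45.5 and 31.4 to 101, 71.1 and 86.6 CPM (1.31, adjusted p = 0.000125), and its relative Clec4e, or Mincle, rose by 0.87. Clec7a, the beta-glucan receptor dectin-1, was weak in the control, at 0.452, 0.266 and 0.601 CPM, and reached 4.57, 2.95 and 4.38 CPM (3.14, adjusted p = 0.000474). Lilrb4a, an inhibitory receptor picked after its values were seen, rose from 6.44, 11.3 and 9.98 to 25.9, 18.3 and 24.1 CPM and was higher still with ETV6 WT, at 79.3 CPM (P214L against ETV6 WT -1.81, adjusted p = 1.53e-06).

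Prg2 rose, and 3 other genes known from eosinophils are given beside it, with no list of such genes counted. Prg2, the eosinophil major basic protein (ENSMUSG00000027073; chromosome 2, 84810805 to 84813976), was at 81.8, 84.9 and 82.4 CPM in ZsGreen and 310.3, 264 and 262 CPM in P214L libraries. The libraries of each group were close together and the groups far apart (3.36-fold, 1.75 ± 0.09, adjusted p = 3.63e-09). With ETV6 WT it averaged 70.4 CPM and with I209S P214L 54.1 CPM (P214L against ETV6 WT 1.99, adjusted p = 3.29e-11). Epx, eosinophil peroxidase, Prg3, a relative of Prg2, and Siglecf, a sialic acid-binding receptor of eosinophils, were picked after their values were seen. Epx went from 2.37, 2.33 and 1.2 to 7.35, 5.97 and 6.6 CPM (adjusted p = 0.0174), Prg3 from 0, 0.666 and 1.02 to 4.5, 3.49 and 4.45 CPM (adjusted p = 0.0178) and Siglecf from 4.74, 2.73 and 4.45 to 8.45, 11.6 and 12.9 CPM (adjusted p = 0.00763). These are low levels, where the ZsGreen libraries detected fewer genes. Epx was not called without ZsGreen 3 or any 1 P214L library, Prg3 not without P214L 1 or P214L 3, and Siglecf not without P214L 3.

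**Figure D3:**
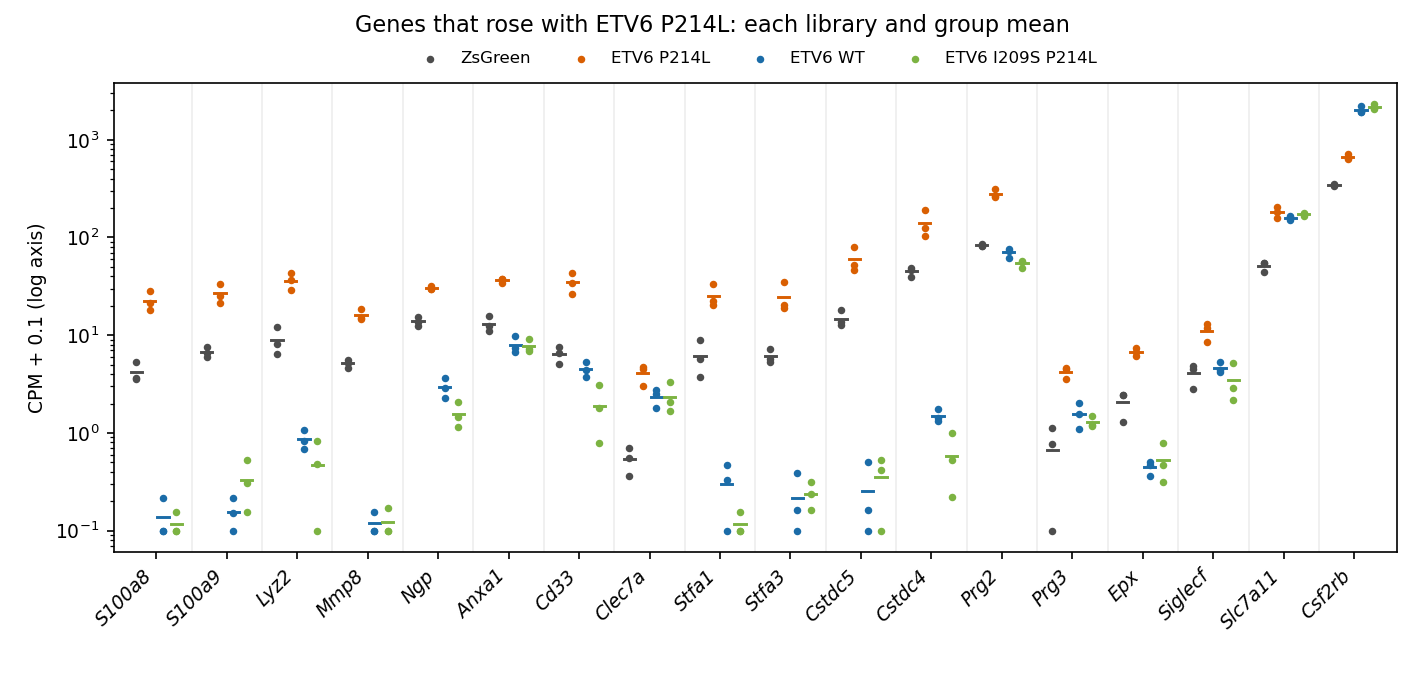
Points are single libraries and lines group means, in CPM + 0.1 on a log axis, for 18 genes that rose with ETV6 P214L over ZsGreen. The 3 orange P214L points lie above the 3 grey ZsGreen points for each gene; for S100a8, S100a9, Lyz2, Mmp8 and the stefins the ETV6 WT and I209S P214L points lie below both, and for Slc7a11 and Csf2rb they lie above ZsGreen.

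The host transcript of a myeloid microRNA rose as well and was picked after its values were seen. F630028O10Rik, an RNA on chromosome X, went from 115, 100.3 and 106 CPM to 242, 237 and 232 CPM with almost no spread within a group (2.22-fold, 1.15 ± 0.08, adjusted p = 1.27e-07). On GRCm38.p6 the hairpin of miR-223, a microRNA abundant in granulocytes, lies inside its span, which is why its 2 mature forms are shown from RefSeq, with the seed (bases 2 to 8) in capitals.
mmu-miR-223-5p: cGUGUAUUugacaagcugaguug
mmu-miR-223-3p: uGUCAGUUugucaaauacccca
Mature microRNAs were not measured here. With ETV6 WT the transcript averaged 126 CPM and with I209S P214L 90.2 CPM.

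Slc7a11 encodes the cystine importer xCT, which feeds glutathione synthesis. It was at 44.2, 55.1 and 54.9 CPM in ZsGreen and 203, 158 and 183 CPM in P214L libraries, a clear separation (3.53-fold, 1.82 ± 0.10, adjusted p = 3.63e-09). Its level with P214L was not called different from that with ETV6 WT, at 159.6 CPM, or with I209S P214L, at 172 CPM (adjusted p = 0.152 and 0.597). Of 33 genes known as targets of NRF2, the factor of the antioxidant response, 9 rose and none fell, with a median of 0.10. They were Slc7a11, Hmox1, Gpx1, Pgd, Ftl1, Fth1, Gsr, G6pdx and Cat, and 5 were called without P214L 1. Beside these, 3.47% of all genes tested rose. Hmox1, heme oxygenase 1, went from 40.1, 28.8 and 30.4 to 54.7, 52 and 56.2 CPM (0.71, adjusted p = 0.000274). Nqo1 and Gclm, often used as reporters of NRF2, were picked after their values were seen. Nqo1 was at 14.6, 15.2 and 13.7 and 14.1, 17.6 and 15.7 CPM (0.13, adjusted p = 0.735) and Gclm at 283, 243 and 258 and 238, 296 and 255 CPM (0.01, adjusted p = 0.978), with overlapping groups.

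Iron genes overlapped with that list. Of 23 iron and heme genes 6 rose and none fell (median 0.05), namely Alas1, Hmox1, Slc25a37, Ncoa4, Ftl1 and Fth1. The count was 6 in every fit without 1 of the 6 libraries, and 3.47% of all genes tested rose. Alas1, the first enzyme of heme synthesis outside red cells, went from 85, 87.1 and 65.2 to 179, 147 and 162 CPM (1.04, adjusted p = 1.09e-05). Ftl1, the light chain, went from 1098, 1121 and 1037 to 1451, 1554 and 1482 CPM (0.46, adjusted p = 9.28e-05), and Fth1, the heavy chain, from 1364, 1346 and 1282 to 1770.1, 1689 and 1662 CPM (0.36, adjusted p = 0.000566). Other copies of the ferritin genes could share their reads.

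Some lysosomal genes rose, by small amounts. Of 39 tested 12 rose, 27 were not called and none fell (median 0.19). The rises included the glycosidases Gla and Neu1, the proteases Ctsd, Ctsb and Ctss and the membrane protein Lamp2. Ctsb, picked after its values were seen, lost its call without ZsGreen 2 or P214L 1. Ctsd, cathepsin D, went from 210.3, 209.8 and 183 to 289, 271 and 272 CPM (0.47, adjusted p = 0.000504). Gla, alpha-galactosidase, went from 15.3, 21.2 and 16.1 to 31.5, 27.2 and 30.3 CPM (0.76, adjusted p = 0.000706). The count of 12 was 7 without ZsGreen 2, 5 without ZsGreen 3, 5 without P214L 1 and 7 without P214L 3. The share of all genes tested that rose was 3.47%. Gla was higher still with ETV6 WT, at 56.6 CPM (P214L against ETV6 WT -0.93, adjusted p = 6.04e-06).

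The shared beta subunit of the IL-3, IL-5 and GM-CSF receptors rose. Csf2rb (ENSMUSG00000071713; chromosome 15, 78209952 to 78238047) was at 336, 343 and 349 CPM in ZsGreen and 720.2, 656 and 638 CPM in P214L libraries, with little spread in either group (1.96-fold, 0.97 ± 0.07, adjusted p = 1.82e-07). Csf2rb2, its neighbouring copy, went from 369.9, 390.4 and 394 to 709, 638 and 655 CPM (0.79, adjusted p = 1.82e-07), and the 2 genes can share reads. With ETV6 WT they averaged 2027 and 2391 CPM, above P214L (P214L against ETV6 WT -1.59 and -1.84, adjusted p = 1.75e-11 and 3.39e-13). Il3ra, the alpha subunit of the IL-3 receptor, was at 62.8, 66 and 65.3 and 70.3, 65.6 and 64.1 CPM and was not called (adjusted p = 0.884). Of 14 genes of the IL-3 receptor axis 3 rose, the third being Shc1, an adaptor, and none fell (median 0.08). For all genes tested the share that rose was 3.47%. Shc1 was not called without ZsGreen 1, ZsGreen 3, P214L 2 or P214L 3, which left 2 of the 3, and the fit of the 6 libraries alone called 5.

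Among 20 known STAT5 targets 3 rose and 1 fell, with a median of -0.03, and 1 rise was called without P214L 1. Beside this, 3.47% of all genes tested rose and 1.61% fell. Cish, a feedback inhibitor, went from 1.81, 6.93 and 5.23 to 9.98, 11.4 and 8.76 CPM (1.12, adjusted p = 0.0346), with ZsGreen 1 the lowest library. It was not called in the fit of the 6 libraries alone, without ZsGreen 3 or without any 1 P214L library. Lif, a cytokine, rose by 0.93 and Cdkn1a, the cell cycle inhibitor p21, by 0.35 on the log2 scale, the latter not called without ZsGreen 1 or P214L 1. Bcl2l1, the survival factor BCL-XL, went from 76.2, 82.1 and 73.1 to 55.2, 58.4 and 64.7 CPM (-0.38, adjusted p = 0.028) and lost its call without ZsGreen 1, ZsGreen 2, P214L 1 or P214L 2. Pim1, a kinase picked after its values were seen, was at 144, 151 and 153 and 132, 162 and 136 CPM (-0.06, adjusted p = 0.779).

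Several secreted or surface factors were higher with P214L than in any ZsGreen library. Csf1, the macrophage growth factor, went from 19.2, 22.6 and 17.7 to 54.3, 36.3 and 41.2 CPM (1.15, adjusted p = 8.75e-05). Plaur, the urokinase receptor, went from 24.2, 32.2 and 27 to 70.9, 54.1 and 59.2 CPM (1.14, adjusted p = 3.85e-05). Ccl3, a chemokine, rose by 1.22 and lost its call without P214L 1. Of 19 cytokines and growth factors tested 4 rose (Csf1, Ccl3, Ccl9 and Lif) and 1 fell, Fgf23. The shares over all genes tested were 3.47% higher and 1.61% lower. The complement protease genes C1rl, C1ra and C1s1, neighbours on chromosome 6, all rose: C1rl by 1.76, C1ra by 1.27 and C1s1 by 1.21, the last with a call that failed without ZsGreen 3, without any 1 P214L library and with no filter on low counts. C1ra and C1s1 were picked after their values were seen. Other large rises were Trpm2, a cation channel (1.73), and Tnfrsf26, a decoy receptor of the TNF receptor family (1.73), which was at 21.6, 17.2 and 19.9 CPM in P214L libraries and 25.4 CPM with ETV6 WT.

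Platelet and megakaryocyte genes were among the largest falls. Pf4, platelet factor 4 (ENSMUSG00000029373; chromosome 5, 90920294 to 90921242), was at 29.8, 20.6 and 16.4 CPM in ZsGreen and 6.45, 6.32 and 6.08 CPM in P214L libraries. The P214L libraries lay close together, below every ZsGreen library, of which ZsGreen 1 was the highest. The fall was 3.54-fold (-1.83 ± 0.22, adjusted p = 5.19e-05). Ppbp, another platelet chemokine, which neighbours Pf4 in the genome, went from 13, 16 and 10.3 to 6.24, 6.91 and 7.32 CPM (-0.94, adjusted p = 0.00199).

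Of 16 megakaryocyte and platelet genes tested 5 fell, among them Pf4, Selp, Ppbp and Gp9, and 1 rose, the ETS factor Fli1, from 88.1, 93.8 and 93.8 to 123, 115 and 119 CPM (0.38, adjusted p = 0.00282). The median was -0.13, and 4 or 5 falls were called without 1 of the 6 libraries. Over all genes tested 1.61% fell and 3.47% rose. Gp9, picked after its values were seen, lost its call without ZsGreen 1, P214L 1 or P214L 3. Itga2b, the platelet integrin chain CD41, was picked after its values were seen. It was at 899.6, 978 and 954 CPM and 790.1, 841 and 802 CPM (-0.22, adjusted p = 0.138), lower in every P214L library but not called. Summed over the list, the level was 2250 to 2340 CPM in ZsGreen and 1980 to 2200 CPM in P214L libraries. Pf4 averaged 2.92 CPM with ETV6 WT and 2.6 CPM with I209S P214L, below P214L (P214L against ETV6 WT, adjusted p = 0.0015).

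Selp and Sele, whose proteins let leukocytes tether to platelets or endothelium, fell. Selp, P-selectin (ENSMUSG00000026580; chromosome 1, 163942833 to 163977595), was at 20.3, 19.6 and 16.8 CPM in ZsGreen and 7.21, 8.57 and 8.96 CPM in P214L libraries. Every P214L library was below every ZsGreen library (2.29-fold lower, -1.19 ± 0.18, adjusted p = 0.000531). Sele, E-selectin (ENSMUSG00000026582; chromosome 1, 163875803 to 163885246), went from 12.2, 8.73 and 13.6 to 4.16, 4.14 and 4.18 CPM, with almost no spread in P214L libraries (-1.47 ± 0.29, adjusted p = 0.0047). F5, coagulation factor V, on the same chromosome and picked after its values were seen, fell by 0.61 on the log2 scale, and lost its call without ZsGreen 1 or any 1 P214L library. Icam1, an integrin ligand, rose from 30.2, 31.4 and 24.2 to 37.1, 43 and 44.9 CPM (0.54, adjusted p = 0.00906), a call lost without ZsGreen 3, P214L 2 or P214L 3.

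Leukotriene and prostaglandin genes moved both ways. Alox5, the 5-lipoxygenase that starts leukotriene synthesis, was at 49.8, 41.2 and 47.9 CPM in ZsGreen and 18.5, 26.2 and 26.7 CPM in P214L libraries, with P214L 1 the lowest (-0.96 ± 0.15, adjusted p = 0.000765). With ETV6 WT it averaged 2.91 CPM (P214L against ETV6 WT 3.04, adjusted p = 7.03e-10). Pla2g4a, the phospholipase that frees arachidonate, fell by 0.41 and Ptgs1, cyclooxygenase 1, fell by 0.34 on the log2 scale. Of 16 tested 3 fell, in every fit without 1 of the 6 libraries, and 4 rose: Alox15, Alox5ap, Lta4h and Tbxas1. Without 1 of the 6 libraries only 0 to 2 of the rises were called. Beside these counts, 1.61% of all genes tested fell and 3.47% rose.

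**Figure D4:**
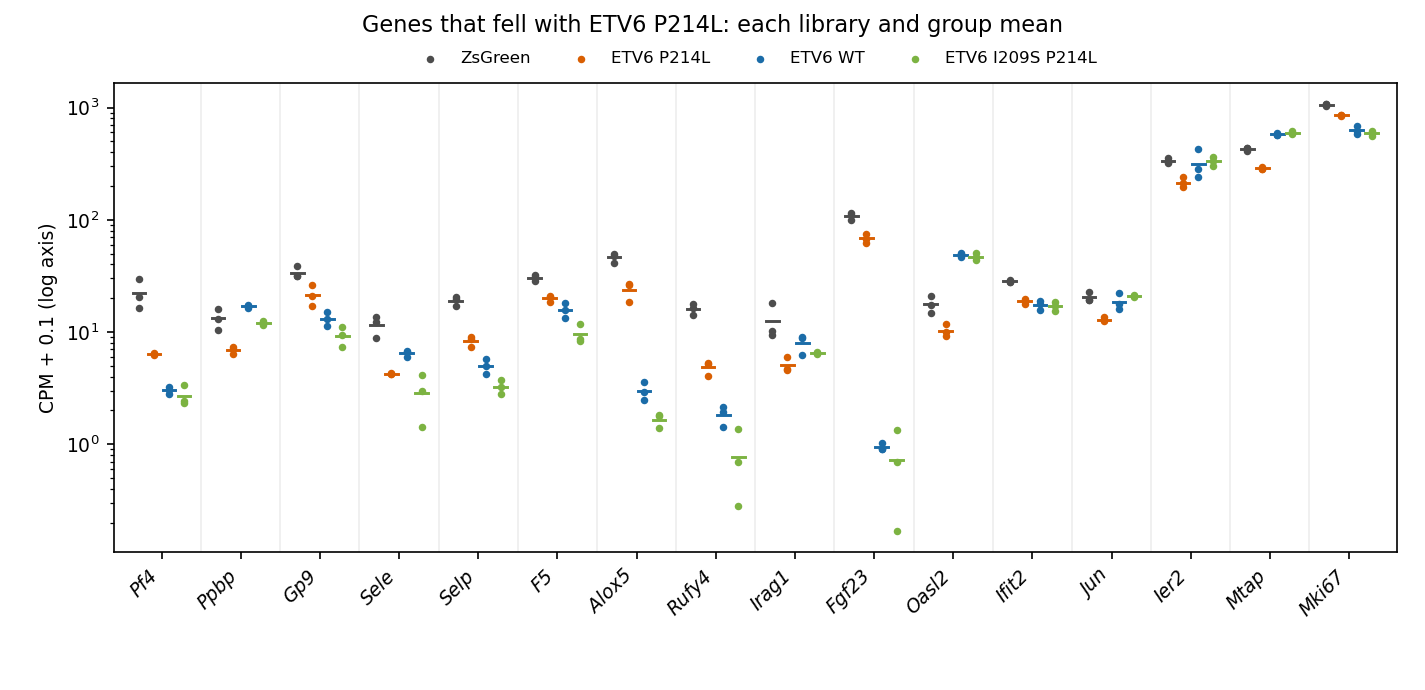
Points are single libraries and lines group means, in CPM + 0.1 on a log axis, for 16 genes that fell with ETV6 P214L against ZsGreen. The orange P214L points lie below the grey ZsGreen points for each gene; Oasl2 and Mtap are higher with ETV6 WT and I209S P214L than with P214L, and Alox5, Rufy4 and Fgf23 are lower.

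Other large falls had no list in common. Rufy4, which encodes a RUN-domain protein, went from 17.5, 16.3 and 14.2 to 5.2, 3.96 and 5.03 CPM (-1.76, adjusted p = 0.00209). Irag1, a substrate of cGMP-dependent kinase, went from 18, 9.33 and 10.1 to 4.5, 5.91 and 4.58 CPM (-1.32, adjusted p = 0.00368). Muc20, a mucin, and Dmpk, a kinase, fell by 0.86 and 0.83 on the log2 scale. Fgf23, the phosphate-regulating hormone, was picked after its values were seen. It went from 114, 111 and 99.6 to 62.3, 75.2 and 67.5 CPM (-0.67, adjusted p = 0.0154), was not called without ZsGreen 1, ZsGreen 2, P214L 1 or P214L 3, and averaged 0.837 CPM with ETV6 WT (P214L against ETV6 WT 6.34, adjusted p = 3.22e-12). Mtap, which recycles a by-product of polyamine synthesis, went from 432, 432 and 412 to 285, 282 and 295 CPM (-0.57, adjusted p = 7.1e-06) while ETV6 WT libraries averaged 579 CPM (P214L against ETV6 WT -1.01, adjusted p = 3.35e-10). Among the 15 largest falls, the calls of Snx9, Rcn3, Ccnb1ip1 and C9orf72 were each lost in 2 or more of the 22 alternatives tried.

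Some interferon response genes fell. Of 43 tested 6 fell (Oasl2, Ifit2, Oas3, Irgm1, Isg20 and Usp18) and 1 rose, Ifitm1, and the median was -0.10. The shares over all genes tested were 1.61% lower and 3.47% higher. Oasl2, an oligoadenylate synthetase-like protein, went from 14.6, 20.7 and 17.4 to 9.91, 9.04 and 11.6 CPM (-0.79, adjusted p = 0.00156), and Ifit2, an RNA-binding antiviral protein, from 28.7, 28 and 28 to 18.8, 19.7 and 17.7 CPM (-0.59, adjusted p = 0.00523). The ETV6 WT level of Oasl2 was 48.9 CPM, above ZsGreen and P214L alike (P214L against ETV6 WT -2.27, adjusted p = 5.55e-10). Ifitm1, a membrane protein that limits virus entry, went from 514, 534 and 469.6 to 890.0, 940.4 and 839 CPM (0.81, adjusted p = 2.67e-06). The count of 6 was 3 without ZsGreen 3 or P214L 1 and 2 without P214L 2. Of 22 genes of MHC class I presentation edgeR called 0 (median 0.02), with 3 at an unadjusted p under 0.05, against 2655 of all 14794 genes tested. DESeq2 called 2 lower, limma-voom 1 and the fit of the 6 libraries alone 2.

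Some immediate-early genes of the RAS-MAPK pathway fell. Jun, an AP-1 subunit, went from 22.6, 19.2 and 19.3 to 13.4, 12.4 and 12.6 CPM (-0.67, adjusted p = 0.00586), and Ier2, another immediate-early gene, from 354, 320.1 and 324 to 194, 211 and 238 CPM (-0.63, adjusted p = 0.013). With ETV6 WT they averaged 18.6 and 316 CPM. Of 30 feedback and target genes 5 fell (Jun, Ier2, Fos, Dusp4 and Spred1) and 1 rose, Plaur, with a median of -0.16. Beside this, 1.61% of all genes tested fell and 3.47% rose. Dusp6, an ERK phosphatase that follows pathway activity, was picked after its values were seen. It was at 212, 206 and 208 and 224, 201 and 228 CPM (0.06, adjusted p = 0.772), and the groups overlapped. The 5 falls became 3 without any 1 ZsGreen library or P214L 3, 1 without P214L 1 or P214L 2, and 8 without ETV6 WT 1. Ier2 was not called without ZsGreen 1, P214L 1 or P214L 2.

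Some genes of growth and division fell, by small amounts. Of 40 genes of MYC-driven ribosome biogenesis 6 fell and none rose, and 39 had a fold change below 0 (median -0.18). Of 40 replication genes 9 fell (median -0.20), and of 40 mitosis genes 11 fell (median -0.19). Of all genes tested 1.61% fell. Among the 2256 genes at 100 CPM or more, 114 fell and 40.3% had a fold change above 0. Mki67, the proliferation marker Ki-67, went from 1072, 1042 and 1073 to 861, 844 and 865 CPM (-0.31, adjusted p = 0.00768), and Kif11, a spindle motor, from 274, 289 and 264 to 211, 212 and 212 CPM (-0.38, adjusted p = 0.000765). Nolc1, a nucleolar protein, fell by 0.35 and Uhrf1, which reads methylated DNA at replication, fell by 0.34 on the log2 scale. With ETV6 WT Mki67 averaged 629 CPM (P214L against ETV6 WT 0.45, adjusted p = 4.1e-05). Myc itself, picked after its values were seen, was at 182, 187 and 193 and 173, 172 and 185 CPM (-0.09, adjusted p = 0.649). The counts moved with single libraries. Without P214L 1, 2 and 3 they were 1, 2 and 2 for ribosome biogenesis, 1, 2 and 1 for replication and 3, 8 and 4 for mitosis. Without ZsGreen 1 they were 2, 3 and 7, and the replication count was 4 without ZsGreen 3. Without ETV6 WT 1 the ribosome biogenesis count was 10, and the fit of the 6 libraries alone called 15, 14 and 16.

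**Figure D5:**
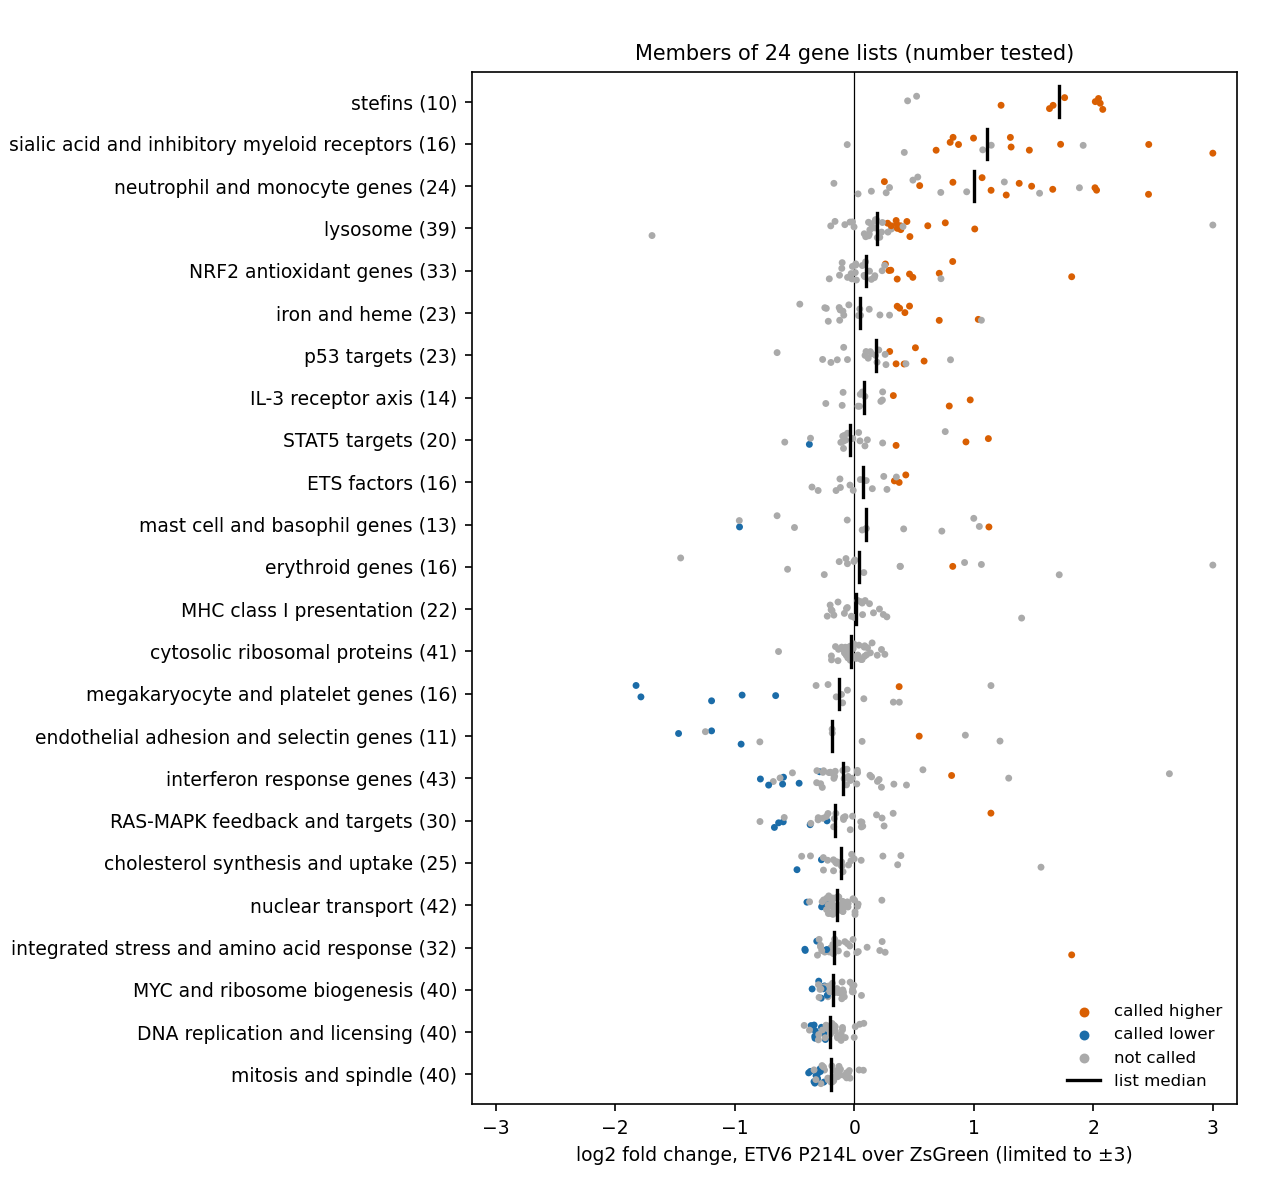
Each point is a tested gene of the list named at the left, at its log2 fold change of ETV6 P214L over ZsGreen, limited to 3 in either direction; the black bar is the list median. The stefins (median 1.71), myeloid receptors (1.11) and neutrophil and monocyte genes (1.01) lie to the right, and the replication (-0.20), mitosis (-0.19) and ribosome biogenesis (-0.18) lists lie slightly to the left of 0.

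Some other lists are given together. Of 23 p53 targets 5 rose (Cdkn1a, Gadd45a, Mdm2, Polk and Trp53inp1) and none fell (median 0.18), where 3.47% of all genes tested rose. The count of 5 was 3 without ZsGreen 1 or P214L 1. Of 32 genes of the integrated stress and amino acid response 4 fell, among them Psat1 of serine synthesis (-0.41), and 1 rose, Slc7a11. The count of 4 was 1 without P214L 1, 2 without ZsGreen 1, ZsGreen 2 or P214L 3, 7 without ETV6 WT 1 and 10 in the fit of the 6 libraries alone. Of 42 nuclear transport genes 3 fell, the importins Kpnb1 (-0.27), Ipo7 and Ipo11. Beside this, 1.61% of all genes tested fell, and 114 of the 2256 genes at 100 CPM or more. The nuclear transport count was 13 in the fit of the 6 libraries alone and 6 without ETV6 WT 1. It was 1 without ZsGreen 1, ZsGreen 2, P214L 1 or P214L 3. edgeR called 0 of 41 cytosolic ribosomal proteins, 0 of 36 nuclear-encoded respiratory chain subunits and 0 of 14 mitochondrially encoded RNAs. At an unadjusted p under 0.05 the numbers were 6, 3 and 1, beside the 2655 of all 14794 genes. The fit of the 6 libraries alone called 3 ribosomal protein genes higher and 3 lower, 1 respiratory chain gene higher and 5 mitochondrially encoded RNAs lower. DESeq2 called 1 ribosomal protein gene lower and none of the others, and limma-voom called none of the 3 lists' members. Of 16 ETS factors Etv6, Fli1 and Spi1 rose, the last, PU.1, from 154, 155 and 136 to 213, 200.2 and 186 CPM (0.43, adjusted p = 0.00404). Gata1 and Gata2, factors of the erythroid, megakaryocyte and mast cell lines, were picked after their values were seen. Gata1 was at 68.8, 69.8 and 66.2 and 64.2, 80.7 and 71.5 CPM and Gata2 at 1773, 1838 and 1866 and 1793, 1749.6 and 1717 CPM, and neither was called (adjusted p = 0.709 and 0.785). Of 13 mast cell and basophil genes tested 1 rose, Cd200r3 (1.13, adjusted p = 0.000274), and 1 fell, Alox5. Summed over that list, the level was 2270 to 2410 CPM in ZsGreen and 2270 to 2330 CPM in P214L libraries. Most of this sum was Gata2, so it says little of the other members.

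Long noncoding RNAs were named by the same limits on level and overlap. Gm6209 on chromosome 3 was at 3.1, 3.26 and 2.77 CPM in ZsGreen and 10.7, 10.8 and 10.5 CPM in P214L libraries (1.81 ± 0.22, adjusted p = 5e-05), and averaged 14.4 CPM with ETV6 WT. Gm20658 on chromosome 12 went from 23.3, 18.3 and 23.8 to 53.7, 58.6 and 52.1 CPM (1.33, adjusted p = 2.19e-06). The largest fall was Gm45353, from 14.3, 12.7 and 15.9 to 8.11, 8.62 and 7.65 CPM (-0.82, adjusted p = 0.0039). Neat1, a nuclear RNA, rose from 85.6, 89.1 and 111 to 175, 133 and 145 CPM (0.66, adjusted p = 0.00137). The function of the first 3 is not given in the files, and since strand was not settled, reads of an overlapping gene on the other strand cannot be told apart from theirs.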

How the data were processed

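The data are deposited raw counts of poly-A RNA-seq reads per gene. Reads were aligned with HISAT2 2.0.5 and counted with featureCounts 1.5.0-p3 by the authors, per the submitters' processing notes, on mm39. The strand setting was not settled, since the library text describes both directional and non-directional kits. Of 56748 genes, 14794 passed filterByExpr over the 4 groups. edgeR 4.0.16 (R 4.3.3) fitted all 12 libraries with 1 mean per group, TMM scaling and the quasi-likelihood test, and p-values were adjusted by Benjamini-Hochberg over all genes tested. CPM are TMM-scaled and a ± after a log2 fold change is its SE. The authors' deposited table of adjusted p-values and log2 fold changes was used only where named.

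Alternatives were DESeq2 1.42.0, limma-voom (limma 3.58.1), other scalings and filters, the 6 libraries alone, a replicate block, and each library left out. Replicate numbers did not pair the ZsGreen with the P214L libraries. ETV6 WT 1 and I209S P214L 1, which share a number, were each other's nearest library by correlation. The fit was tested on simulated data. Total counts were 14767981 to 17876563 in the 6 libraries compared.

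Named genes were the 15 largest protein-coding rises and falls with a mean of at least 5 CPM and no overlap of groups, up to 4 called members of each of 44 lists by adjusted p, 3 long noncoding RNAs in each direction under the same limits, the 10 called protein-coding genes with the highest CPM, and Etv6, Nras, Il3, Il3ra, Csf2rb and Xpo1. The comparison, the members and the lists were chosen with earlier results of these data known, and lists are described by counts and medians without a test.
A few genes of the rule and of the lists are not reported here.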

Additional observations from a re-analysis of the deposited data

How the results depend on the processing

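Of the alternatives to the 751 calls (513 higher, 238 lower), DESeq2 called 1188 with 476 lower, the 6 libraries alone called 485 lower, and leaving out ETV6 WT 1 with I209S P214L 1 called 1224, 757 higher and 467 lower. The cause was not tested. Leaving out 1 of the 12 libraries gave 369 to 960 calls, 295 to 622 higher and 74 to 338 lower. Other scalings gave 734 to 811 calls, limma-voom 816, no filter on low counts 972 and a count of at least 50 in 3 libraries 882.

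Replicate numbers did not pair the ZsGreen with the P214L libraries. Deviations of same-numbered libraries from their group means had correlations of -0.0273, -0.0222 and 0.000947. ETV6 WT 1 and I209S P214L 1, which share a number, were each other's nearest library, with a correlation of 0.9917. With the number as a replicate block 881 genes were called, 586 higher and 295 lower. Among the genes tried, none that was called with all 12 libraries changed sign in any alternative tried, while genes near 0 that were not called, such as Gata1, Gclm and Prtn3, did in some. Of 178 genes tried, 64 lost their call in at least 1. With 3 libraries a group, small changes may be missed, and weak genes are limited by the fewer genes detected in ZsGreen libraries.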
